A study of Mus musculus with 2 samples.

Results

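The oligoadenylate synthetase (OAS) genes were followed in polyA RNA of Dicer_KO mouse embryonic stem cells (mESCs). The members are Oas1a, Oas1b, Oas1c, Oas1g, Oas2, Oas3, Oasl1 and Oasl2, which are 8 of the 43629 genes in the count files. They were chosen by gene symbol with their counts in these same libraries in view, so their levels and ratios below are descriptions and carry no test. The data comprise 2 libraries with the genotype Dicer knockout, replicate 1 at passage 7 and replicate 2 at passage 4. Both come from mESCs of a 129/Ola background, derived from the E14TG2a line by CRISPR/Cas9 with paired guides. The study isolated clones from independent deletion events in Dicer1, and the labels do not say which deletion each library carries. WT mESCs were not analysed here. The comparison is therefore between the Dicer_KO libraries, in which clone, passage and library cannot be told apart.

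OAS proteins are sensors of double-stranded RNA. On binding it, the active forms join ATP into short oligoadenylates with 2′-5′ bonds (2-5A), which act as a second messenger of the antiviral response. Most OAS genes are induced by interferons through the interferon-stimulated response element (ISRE), a site bound by a complex that holds STAT2 and IRF9. Embryonic stem cells are known for a weak interferon response. DICER itself also acts on double-stranded RNA, which it cuts into small RNAs.

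All 8 members lie on chromosome 5 of GRCm38 (mm10), in 2 places. Oasl2 (114896936 to 114912234) and Oasl1 (114923240 to 114937915) lie side by side on the plus strand. Some 5792417 bases further on, Oas2 (120730333 to 120749853, minus strand) and Oas3 (120753098 to 120777661, minus strand) open a block that also holds the Oas1 genes. Oas1c (120800194 to 120812514, minus strand) and Oas1b (120812635 to 120824163, plus strand) are transcribed away from each other and are separated by 120 bases. Oas1g (120876142 to 120887613) and Oas1a (120896256 to 120907521) follow, both on the minus strand. In the count files the members are Oas1a (ENSMUSG00000052776), Oas1b (ENSMUSG00000029605), Oas1c (ENSMUSG00000001166), Oas1g (ENSMUSG00000066861), Oas2 (ENSMUSG00000032690), Oas3 (ENSMUSG00000032661), Oasl1 (ENSMUSG00000041827) and Oasl2 (ENSMUSG00000029561). The annotation calls Oas1b a polymorphic pseudogene and the other members protein coding.

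Sequence before the start site is shown for the members whose promoter holds an ISRE core and, for contrast, for Oasl2, the member that differed most between the libraries. The RefSeq promoter table (GRCm38.p6, 250 bases before to 50 after each start) held 6 of the 8 members, without Oas1b and Oas2. The core searched was TTTC, any 2 bases and TTTC again, on both strands, with overlapping matches counted one by one. Each stretch reads 5′ to 3′ on the strand of its gene, with the matches in capitals.
Oas1a, chr5:120907526-120907575, minus strand, bases -50 to -1: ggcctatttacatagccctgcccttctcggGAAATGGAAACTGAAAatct
Oas1g, chr5:120887614-120887663, minus strand, bases -50 to -1: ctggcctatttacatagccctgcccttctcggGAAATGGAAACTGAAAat
Oas1c, chr5:120812585-120812634, minus strand, bases -120 to -71: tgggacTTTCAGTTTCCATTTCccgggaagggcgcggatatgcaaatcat
Oas3, chr5:120777700-120777749, minus strand, bases -90 to -41: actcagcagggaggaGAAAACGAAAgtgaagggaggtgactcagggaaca
Oasl2, chr5:114896834-114896933, plus strand, bases -100 to -1: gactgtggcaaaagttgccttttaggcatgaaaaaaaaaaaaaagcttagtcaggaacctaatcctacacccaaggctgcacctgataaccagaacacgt

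The core was found in 4 of the 6 promoters, and in 3.44% of all 32851 promoters of the same length. Oas1a, Oas1g and Oas1c each held 2 overlapping matches, and 0.225% of all promoters held 2 or more. In Oas1a the matches lay between bases -20 and -5, and in Oas1g between -18 and -3. The promoters of Oas1a and Oas1g were identical in 261 of 294 aligned bases (85.3% with gaps counted). In Oas1c the matches lay further out, at -114 to -99, in the 120 bases that part it from Oas1b. At 120812613 to 120812628 they lie closer to the annotated start of Oas1b (120812635) than to that of Oas1c (120812514). Their letters are the reverse complement of those in capitals for Oas1a and Oas1g. Oas3 held 1 match at -75 to -66. The windows of Oasl1 and Oasl2 held none, which says only that these letters are not in them. The palindromic letters TTCNNNGAA of the gamma-activated site (GAS) occurred in Oas1a alone of the 6, and in 8.30% of all promoters. A match is a run of letters and not a measured binding site.

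Counts on genes totalled 41710122 in replicate 1 and 41566184 in replicate 2, so that 3 counts correspond to 0.0719 and 0.0722 counts per 1000000 counts on genes (CPM). Dicer1, the targeted gene, had 1343 and 1510 counts, which were summed over the whole gene and so do not check the deletion. All 6 pluripotency markers were found at 2562 counts or more in each library. Fibroblast or feeder markers summed to 22.4 and 17.5 CPM, mostly from Thy1 (823 and 621 counts), with Postn at 0 in both. Leukocyte markers summed to 51.0 and 42.4 CPM, mostly from Cd68 (1301 and 1409 counts) and Cd3e (642 and 299). Ptprc had 5 and 4 counts and Csf1r 95 and 1. Primitive endoderm markers summed to 17.1 and 10.2 CPM, mostly from Gata4 (586 and 318 counts). Trophectoderm markers differed more. Their sum was 375 CPM in replicate 1 and 58.4 CPM in replicate 2, mostly from Krt8 and Krt18, while Cdx2 had 6 counts and 1.

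The OAS genes were expressed in both Dicer_KO libraries, and the libraries differed in which of them held the most counts. The 8 members together had 9467 counts (227 CPM) in replicate 1 and 4925 counts (118 CPM) in replicate 2. After scaling by the trimmed mean of M values (TMM), the sum was 1.77-fold higher in replicate 1, a log2 ratio of 0.82 (exact 95% interval 0.77 to 0.87). Such intervals, here and below, cover counting error only. Without Oasl2 the sum was 1.27-fold higher. In bulk RNA, fewer cells with a transcript and less of it per cell cannot be told apart.

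**Figure D1:**
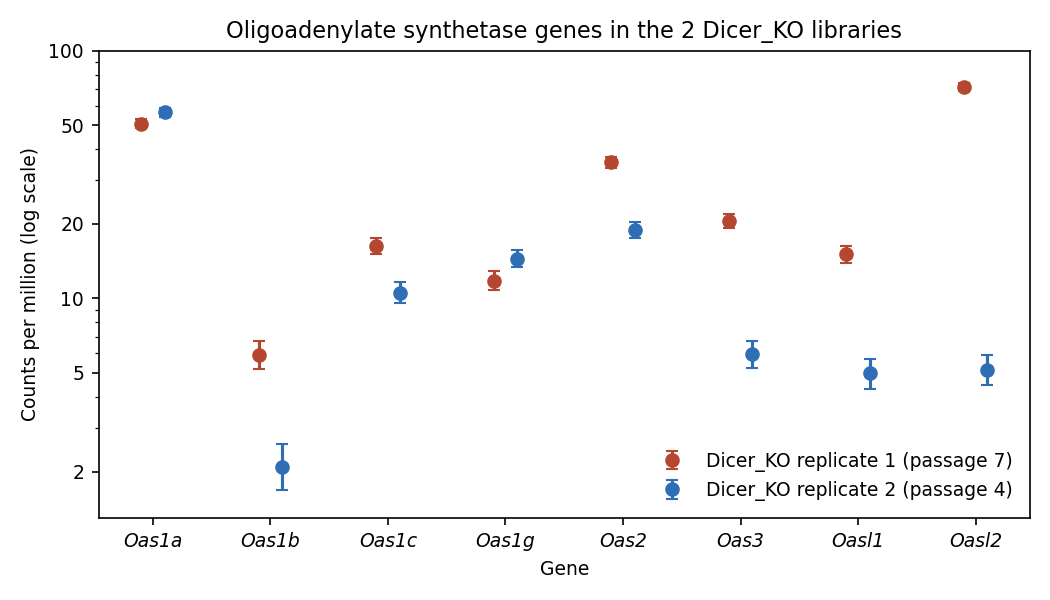
CPM of the 8 OAS genes (y axis, log scale) in Dicer_KO replicate 1 (red) and replicate 2 (blue). Points are single libraries and bars are exact 95% Poisson intervals. Oas1a and Oas1g are slightly higher in replicate 2, while Oasl2 has 71.2 CPM in replicate 1 and 5.15 CPM in replicate 2.

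Oasl2 encodes an OAS-like protein with ubiquitin-like domains that retains synthetase activity. It had 2969 counts in replicate 1 and 214 in replicate 2, or 71.2 CPM (exact Poisson 95% interval 68.6 to 73.8) and 5.15 CPM (4.48 to 5.89). Its normalized count was 12.7-fold higher in replicate 1, a log2 ratio of 3.67 (3.47 to 3.88), and 77 genes had a higher ratio among the 17816 that averaged 10 or more normalized counts. Oasl1, its neighbour, also carries ubiquitin-like domains but lacks synthetase activity, and is known to repress translation of Irf7 mRNA. Oasl1 had 629 counts and 207, a log2 ratio of 1.48 (1.25 to 1.71). Both OAS-like genes were thus lower in replicate 2, and the intervals of their ratios did not overlap.

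Oas3 and Oas2 encode the larger synthetases, built of tandem OAS units. Oas3 had 859 counts in replicate 1 and 248 in replicate 2, or 20.6 CPM and 5.97 CPM. Its log2 ratio was 1.67 (1.46 to 1.88). Oas2 differed less, with 1476 counts and 786, or 35.4 CPM and 18.9 CPM, a log2 ratio of 0.79 (0.66 to 0.91). The intervals of Oas3 and Oas2, whose genes lie 3244 bases apart on the same strand, did not overlap.

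Among the small synthetases the libraries did not differ in a common direction. Oas1a, which encodes an active enzyme, had 2116 counts in replicate 1 and 2342 in replicate 2, or 50.7 CPM (48.6 to 52.9) and 56.3 CPM (54.1 to 58.7). Oas1g, also active, had 492 counts and 602, or 11.8 CPM and 14.5 CPM. Their log2 ratios were -0.27 (-0.35 to -0.18) for Oas1a and -0.41 (-0.59 to -0.24) for Oas1g. Both genes were therefore slightly higher in replicate 2, within 1.33-fold. Their transcripts are close copies. Of the stretches of 100 bases in the longest transcript, 40.9% in Oas1a and 38.2% in Oas1g occur letter for letter in the other gene, and at 50 bases 57.6% and 54.1%. How the gene counts treated reads that align to several places is not stated. The division of reads between this pair, and the level of each, are therefore uncertain. Their sum, 2608 counts and 2944, had a log2 ratio of -0.30 (-0.37 to -0.22).

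Oas1b and Oas1c were both higher in replicate 1. Oas1b is the gene of resistance to flaviviruses, which many laboratory strains carry with a premature stop codon. It had the fewest counts of the members in each library, 247 and 87, and a log2 ratio of 1.37 (1.03 to 1.75). Oas1c, on the other side of the 120 bases that separate their starts, had 679 counts and 439, and a log2 ratio of 0.51 (0.33 to 0.68). The intervals of this divergent pair did not overlap. At 100 bases no stretch of Oas1b occurs in another gene, and 4.47% of those of Oas1c do, in Gm43069, an annotated gene on the opposite strand that overlaps 227 of its exonic bases.

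**Figure D2:**
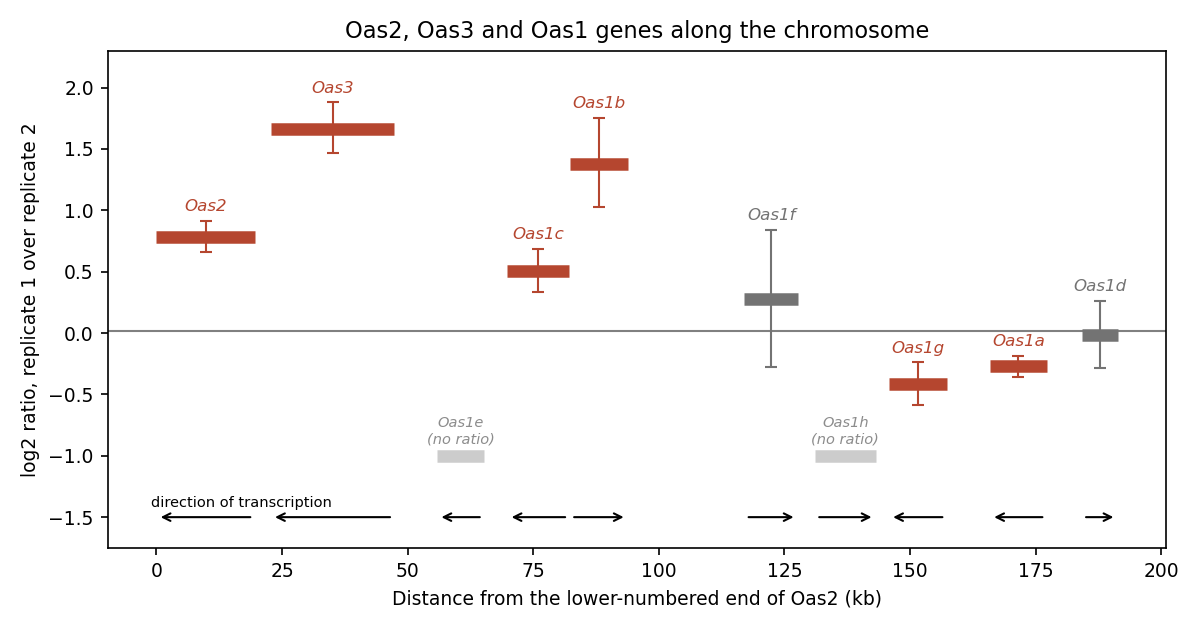
Log2 ratio of replicate 1 over replicate 2 (y axis) for the Oas2, Oas3 and Oas1 genes, drawn at their places along chromosome 5 (x axis, kb from the lower-numbered end of Oas2). Red bars are members and grey bars the other Oas1 genes, with whiskers for exact 95% counting intervals and arrows for the direction of transcription. Oas3 and Oas1b are the highest at 1.67 and 1.37, Oas1g and Oas1a lie below 0, and Oas1e and Oas1h, with too few counts for a ratio, are placed at an arbitrary height. The horizontal line is the median of all genes tested, 0.02.

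At least 2-fold higher values in replicate 1 were found for 4 of the 8 members, Oasl2, Oas3, Oasl1 and Oas1b, where 14.2% of the 17816 genes tested passed this limit in that direction. None of the 8 was at least 2-fold lower in replicate 1, where 7.26% of all genes were. The median log2 ratio of the members was 1.08, with a range of -0.41 to 3.67, and that of all genes was 0.02, with quartiles of -0.38 and 0.53. All 8 members passed the minimum of 10 normalized counts. No p-value was computed, because each passage has 1 library and the labels do not name the clones.

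The make-up of the OAS counts, which are not corrected for gene length, differed accordingly. Oas1a gave 22.4% of the members' counts in replicate 1 (exact binomial 95% interval 21.5 to 23.2) and 47.6% in replicate 2 (46.2 to 49.0). Oasl2 gave 31.4% (30.4 to 32.3) and 4.35% (3.79 to 4.95). Thus Oasl2 held the largest share of the counts in replicate 1 and Oas1a in replicate 2. Oas2 kept nearly the same share, 15.6% (14.9 to 16.3) and 16.0% (14.9 to 17.0), and its intervals overlapped.

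**Figure D3:**
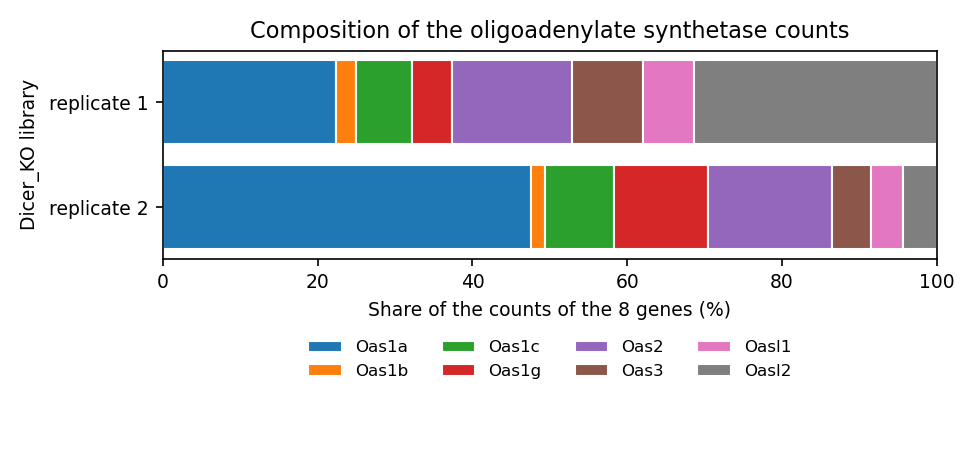
Share of the counts of the 8 OAS genes that fell on each gene (x axis, percent) in replicate 1, of 9467 counts, and in replicate 2, of 4925 counts. Each bar adds up to the whole of a library's OAS counts. Oasl2 is the largest segment in replicate 1 and Oas1a in replicate 2.

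Levels between genes were compared per length, as CPM per kilobase of exon (RPKM). Oas1a had the highest level in each library, 26.9 RPKM in replicate 1 and 29.9 RPKM in replicate 2, or 28.4 ± 2.11 (SD, n = 2). The order below it depended on the library. In replicate 1 it ran from Oasl2 (11.2 RPKM) through Oas2 (7.95), Oas1c (6.77), Oasl1 (5.78), Oas1g (5.04) and Oas1b (2.97) to Oas3 (2.91). In replicate 2 it ran from Oas1g (6.19 RPKM) through Oas1c (4.39), Oas2 (4.25), Oasl1 (1.91), Oas1b (1.05) and Oas3 (0.844) to Oasl2 (0.808). Oasl2 and Oas1g moved past most others between the libraries. The levels of Oas1a and Oas1g, and so their places in the order, are uncertain because of the stretches they share. In both libraries Oas2 and Oas1c lay above Oasl1, and Oasl1 above Oas1b and Oas3. The counting intervals of Oas1b and Oas3 overlapped in both libraries, and those of Oasl1 and Oas1g in replicate 1. In replicate 2 so did those of Oas2 (3.96 to 4.56 RPKM) and Oas1c (3.99 to 4.82), and that of Oasl2 (0.703 to 0.923) overlapped those of both Oas3 (0.742 to 0.956) and Oas1b. With the longest transcript as length, which shortens Oasl2 from 6374 to 3123 bases, Oasl2 was at 22.8 and 1.65 RPKM and ranked 6 of 8 in replicate 2, above Oas3 (1.26) and Oas1b (1.14). Oas1a was still the highest, and Oas2 lay above Oas1c in both libraries. In replicate 2 the intervals of Oas2 (4.45 to 5.12) and Oas1c (4.19 to 5.06) overlapped at this length. In replicate 1 so did those of Oas1c (6.58 to 7.66) and Oasl1 (6.38 to 7.48).

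Among the other Oas1 genes, Oas1d, known from the oocyte, had 231 counts in replicate 1 and 214 in replicate 2, and a log2 ratio of -0.01 (-0.29 to 0.26). Oas1f had 66 counts and 50, a ratio of 0.27 (-0.27 to 0.84). Neither passed 2-fold in either direction, nor did 13990 of all 17816 genes tested. Oas1e (6 and 4 counts) and Oas1h (10 and 0 counts) were below the minimum of 10 normalized counts.

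Other genes that act on the 2-5A pathway differed by less than 2-fold between the libraries. Abce1, a factor of ribosome recycling that is also known as an inhibitor in the 2-5A pathway, had 14310 and 16198 counts, a log2 ratio of -0.30. The enzymes Pde12 and Akap7, whose phosphodiesterase domains can degrade 2-5A, had 1768 and 2071 counts (log2 ratio -0.35) and 2010 and 1157 counts (log2 ratio 0.67). Of these 3 genes none was past 2-fold in either direction, nor were 13990 of all 17816 genes tested. The median log2 ratio of the 3 genes was -0.30.

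Other genes of double-stranded RNA sensing did not share a direction. Of 8 such genes, 2 were at least 2-fold higher in replicate 1 and 2 at least 2-fold lower, where 14.2% and 7.26% of all genes were, and their median log2 ratio was 0.21. Ifih1, which encodes the sensor MDA5, had 342 counts in replicate 1 and 40 in replicate 2, a log2 ratio of 2.95 (2.50 to 3.48), and Zbp1, a sensor of Z-form nucleic acid, had 1.39. The RIG-I gene Ddx58 went the other way, with 2525 counts and 5147, a log2 ratio of -1.15 (-1.22 to -1.08). So did the endosomal receptor Tlr3, at -1.12. Eif2ak2, which encodes the kinase PKR, had 2882 and 2672 counts and a log2 ratio of -0.01 (-0.09 to 0.06). The other members of this list lay between, with log2 ratios of 0.91 for Dhx58, 0.39 for Mavs and 0.03 for Adar.

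Transcripts of factors that bind the ISRE were present in both libraries. Irf9 had 2944 and 2482 counts (log2 ratio 0.12) and Stat2 had 2484 and 1222 (0.90). Irf7, itself interferon-induced, had 148 counts in replicate 1 and 4 in replicate 2, a log2 ratio of 4.80 (3.70 to 6.98). It passed the count minimum through replicate 1 alone. Among 9 interferon factors and receptors Irf7 was the single gene past 2-fold in either direction. Of all genes, 14.2% were at least 2-fold higher in replicate 1 and 7.26% at least 2-fold lower. Irf1 followed with 0.93. The receptor gene Ifnar1 had the lowest ratio of this list, -0.66, and the kinase gene Jak1 the next, -0.08. Transcripts of the 6 interferon genes examined, with Ifna4 the only Ifna gene among them, were near 0. Ifnb1 had 1 count, Ifnl2 and Ifnk 4 counts each in replicate 1, and all 6 had 0 counts in replicate 2.

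Among other interferon-induced effector genes more were higher in replicate 1 than lower. Of the 18 listed, 15 passed the count minimum, 9 of these were at least 2-fold higher in replicate 1 and none was at least 2-fold lower, where 14.2% and 7.26% of all genes were. Of these 9, Isg15, Usp18, Mx2 and Sp100 had 7 counts or fewer in replicate 2 and passed the minimum through replicate 1 alone, so the count is a description and supports nothing. The median log2 ratio of the 15 was 1.24, with a range of -0.82 to 4.27. The ubiquitin-like modifier Isg15 had 165 counts and 7 (log2 ratio 4.27), and its protease Usp18 had 53 and 3 (3.66, with an interval of 2.40 to 6.34). At the other end were Ifit2, with 81 and 132 counts (-0.82), and the ubiquitin ligase Trim25, with 11313 and 11787 (-0.18). This list shares no gene with the members. All 5 of the trophectoderm markers that passed the minimum were also at least 2-fold higher in replicate 1, with a median log2 ratio of 2.42, and the part of such cells in the OAS values was not tested.

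**Figure D4:**
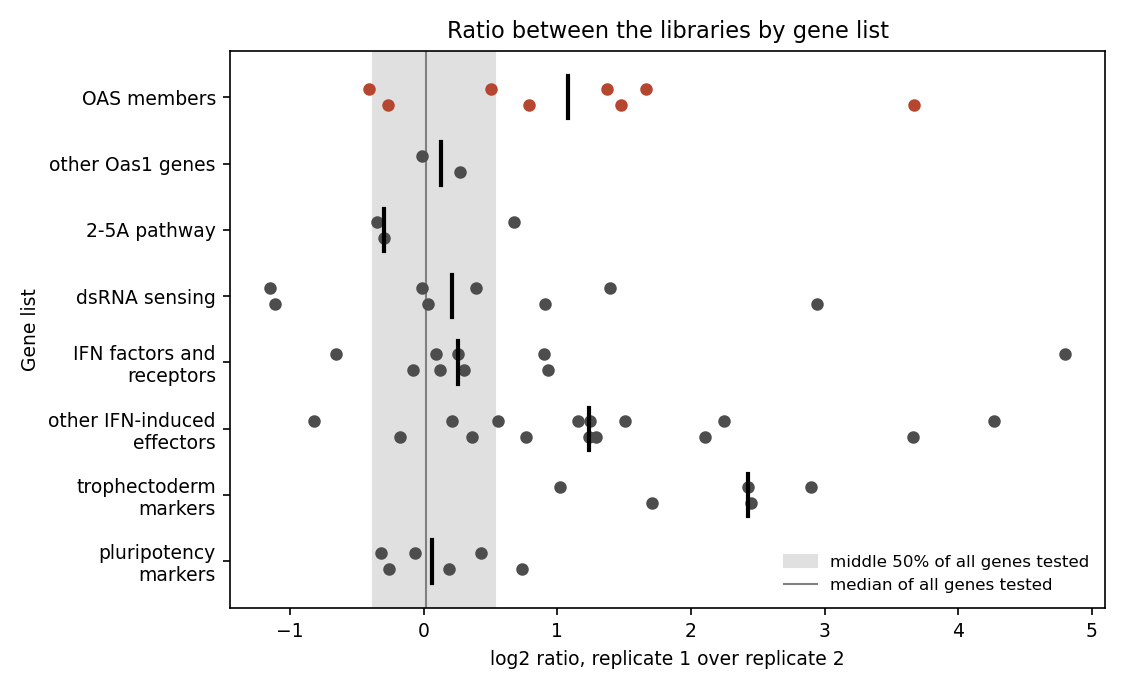
Log2 ratio of replicate 1 over replicate 2 (x axis) for each gene that averaged 10 or more normalized counts, by list (y axis). Points are genes, thick bars list medians, and the grey band and line show the quartiles (-0.38 and 0.53) and the median (0.02) of all 17816 genes tested. The OAS members (red) and the other interferon-induced effectors have medians of 1.08 and 1.24, and the trophectoderm markers one of 2.42.

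Genes next to the OAS genes were compared to see whether the regions as a whole differed. Within 200 kb of both places, 19 other genes passed the count minimum, with a median log2 ratio of 0.24 and a range of -2.32 to 2.24. Of these, 2 were at least 2-fold higher in replicate 1 and 1 was at least 2-fold lower, where 14.2% and 7.26% of all genes were. Values above 0 were found for 17 of the 19, and for 9129 of all 17816 genes. In the block of Oas2, Oas3 and the Oas1 genes 8 neighbours were tested, all 8 above 0 and 2 of them past 2-fold, with a median of 0.32. Beside Oasl2 and Oasl1 11 were tested, 9 above 0 and none at least 2-fold higher, with a median of 0.12. Beside the larger block, Dtx1 had 1330 and 803 counts, a log2 ratio of 0.61, and Rph3a on the other side had 55 and 10 counts, a ratio of 2.24. Beside Oasl2 and Oasl1, the pseudogene Ywhaq-ps2 had 4 and 22 counts (-2.32) and 2210016L21Rik had 1137 and 851 (0.30). The median over the 1062 genes tested on chromosome 5 was -0.03.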

How the data were processed

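PolyA RNA was sequenced from 2 Dicer_KO libraries with a reverse-stranded kit. The authors trimmed the reads, mapped them to mm10 with STAR (2.4.2a) and assigned them to Ensembl genes by featureCounts (1.4.5-p1), leaving out reads in overlapping regions. The versions are those in the submitters' processing notes. The deposited values are raw counts per gene. The strand setting of the counting and its treatment of reads with several alignments are not given in the sources used here.

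The 2 libraries form 1 group, so no test was possible and only levels, ratios and counting intervals (exact, 95%) are given. Library sizes were scaled with the TMM factors of edgeR (4.0.16, R 4.3.3). Log2 ratios used a pseudocount of 1 normalized count, and lists and all genes a minimum mean of 10. Symbols matched 42462 of 43629 identifiers. Positions and exon lengths came from GENCODE M21 (GRCm38), which is not the release counted on. The alternatives were DESeq2 size factors (1.42.0), total counts, raw counts, other minimums, thresholds and lengths, and leaving out each library. The ratio was checked on simulated data scaled by total counts rather than TMM. Its intervals were checked on simulated counts with counting error alone, which is what they assume. That check does not cover variation between libraries. The members and lists were chosen with earlier results of these data known. Some genes are not reported here and were left out of the lists. Named are all members, the other Oas1 genes, the 2-5A pathway and the genes of double-stranded RNA sensing. So are the ends of the lists of interferon factors and effectors, and further interferon factors. The nearest neighbours on each side and the 5 genes nearest to Oasl2 in ratio are also named.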

Additional observations from a re-analysis of the deposited data

How the results depend on the processing

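No paired analysis was possible because there is a single group. Of 106 values under alternatives that kept both libraries, 91 stayed the same, 15 moved further, and no ratio past 2-fold changed its sign. Some of these values could not move. Exonic bases not shared on the same strand, one of the lengths, equalled all exonic bases for every member. All genes tested among the members, the 2-5A pathway, double-stranded RNA sensing and the interferon factors and receptors passed every count minimum. Staying the same meant within the counting interval for ratios, within 1.5 times for counts of genes, or at the same rank. For mean CPM it meant within the SD of the 2 libraries. This band was wide for Oasl2 (38.2 ± 46.7 CPM), so its mean CPM could hardly move out of it. Members at least 2-fold higher in replicate 1 numbered 4 under each scaling, but 1 (Oasl2) at a threshold of 4-fold and 5 at 1.5-fold. The count minimums could not change this number, because the lowest mean among the members was 171 normalized counts (Oas1b). The share of all genes higher in replicate 1 was 14.2%, against 4.16% at 4-fold and 23.5% at 1.5-fold, which the thresholds themselves bring about. The median of all genes was 0.02 with TMM and 0.14 with total counts, and the members' median went from 1.08 to 1.20 with it. The rank of Oasl2 by RPKM was 2 in replicate 1 and 8 in replicate 2, or 2 and 6 with the longest transcript, an alternative chosen after seeing the data. With 1 library per passage, differences between the libraries have no replicate check.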

Other observations

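The genes nearest to Oasl2 in their ratio between the libraries, among 13077 with a mean of at least 100 normalized counts, were Rin3 (684 and 50 counts, log2 ratio 3.63), Fstl3 (533 and 39, 3.62), Hand1 (229 and 15, 3.73), Chdh (273 and 18, 3.73) and Isg20 (203 and 13, 3.75). Isg20 is an interferon-stimulated exonuclease and Hand1 a transcription factor of trophoblast and heart. Each of the genes named here reached the mean of 100 through replicate 1 alone and was picked for its ratio, so the list supports nothing. Of the 13077 genes, 23 had a higher ratio than Oasl2. The likeness rests on 2 libraries and is a distance in log2 ratio, since 2 points allow no correlation.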
